A study of Mus musculus with 6 samples.

Results

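The effector chemokines and cytokines are 8 genes for messengers that activated T cells release or carry on their surface: Ccl3, Ccl4, Ccl5, Xcl1, Ifng, Tnf, Il2 and Fasl. They were chosen by symbol from the 32227 genes counted in every library, and all 8 had UMIs (unique molecular identifiers, 1 per counted RNA molecule) in all 6 libraries. Ccl3, Ccl4 and Ccl5 draw T cells, NK cells and monocytes, and Xcl1 draws the cross-presenting dendritic cells that carry Xcr1. Interferon gamma activates macrophages and antigen presentation, TNF drives inflammation, IL-2 sustains the growth of T cells, and Fas ligand kills cells that carry Fas. Resting T cells hold little of most of these mRNAs, which rise soon after the antigen receptor is engaged, while memory CD8 T cells keep a store of Ccl5 mRNA.

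CD8+ T cells were isolated from the thymus and spleen of C57BL/6 mice at baseline, and from B16-OVA melanomas on day 12 after injection, and their RNA was counted in single cells with the PIPseq kit. Mice were over 8 weeks old, and the genotype labels are Pdcd1fl/fl, with a floxed Pdcd1 gene, and Pdcd1 cKO, in which the floxed gene is removed by Cre from the E8I CD8-Cre driver. Each tissue has 1 library per label, from 1 mouse in thymus and spleen and from 3 pooled mice in the tumor. There are thus no replicates, no test was made, and the 95% intervals given cover counting error only: exact Poisson for levels, Clopper-Pearson for shares and exact conditional binomial for ratios.

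Paired values are given with the library labelled Pdcd1fl/fl first. After the filter on genes, UMIs and mitochondrial share, the thymus had 1067 and 2635 cells, the spleen 1478 and 4928, and the tumor 456 and 561. Median UMIs per cell were 4361 and 5417 in thymus, 1320.5 and 1615 in spleen, and 13809.5 and 9510 in tumor. In the spleen, the library labelled Pdcd1fl/fl kept 21.3% of its 6929 barcodes, which had a median of 728 UMIs, against 99.3% of 4963 in the library labelled Pdcd1 cKO. The 2 spleen libraries shared 2 barcodes, and no other pair of libraries shared any. In the tumor, levels and ratios were taken over the 281 and 458 cells of clusters not named as another lineage, with 3757511 and 5169945 UMIs in all. Total UMIs were 6389966 and 19143524 in the thymus and 2220981 and 8923997 in the spleen.

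The labels were first compared with Pdcd1 itself. In the thymus Pdcd1 had 12 and 131 UMIs, or 1.88 and 6.84 CPM (UMIs per 1000000 UMIs of the library), a log2 ratio of 1.87 (1.01 to 2.85). The spleen had 1 and 104 UMIs, a log2 ratio of 4.69 (2.18 to 10.01). Tumor T cell clusters had 689 and 792 UMIs, or 183 and 153 CPM, a log2 ratio of -0.26 (-0.41 to -0.11). Pdcd1 mRNA was thus higher, not lower, in the thymus and spleen libraries labelled Pdcd1 cKO, and in the tumor it was lower by less than 2-fold. Whether the counted molecules held the floxed exons was not tested, so these counts cannot settle the labels either way. Every ratio is therefore one between libraries named by their labels, Pdcd1 cKO over Pdcd1fl/fl. Defining T cell genes were present throughout: Cd3e stood at 283 and 281 CPM in the thymus, 224 and 347 CPM in the spleen, and 301 and 386 CPM in the tumor T cell clusters. The CD8 gene Cd8b1 was lower in each library labelled Pdcd1fl/fl, at 186 and 291 CPM in the thymus, 538 and 860 CPM in the spleen, and 436 and 589 CPM in the tumor. Of the thymus cells, 45.8% and 59.8% had a Cd8b1 UMI. A UMI of Dntt, a gene of early thymocytes, was found in 69.0% and 55.2% of them, so the thymus libraries were not CD8 T cells alone.

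Over the 8 genes together, the libraries labelled Pdcd1 cKO had the higher level of most members in each tissue. In the thymus 7 of 8 members were more than 2-fold higher, beside 8.75% of the 14381 genes with at least 20 UMIs, and none was more than 2-fold lower, beside 5.33% of those genes. The members' median log2 ratio there was 1.76, and that of all genes -0.02. Over thymus cells with a Cd8a or Cd8b1 UMI, the log2 ratios of Ccl5, Xcl1, Ifng and Fasl were 1.47, 1.18, 1.38 and 1.64. These were their lowest values among the alternatives tried, while Il2 had its highest there, 0.32. In the spleen 6 of 8 members were past 2-fold higher, beside 9.18% of 12272 genes, and none lower, beside 2.83%, with a median of 1.35 against 0.17 for all genes. Scaled by the median of ratios, 4 of 8 were past 2-fold higher there. In the tumor 3 of 8 were past 2-fold higher, beside 9.7% of 10654 genes, and 1 was past 2-fold lower, beside 4.31%, with a median of 0.69 against 0.10. With cells of other lineages included, 6 of 8 were past 2-fold higher in the tumor, with a median of 1.27. These directions are those of libraries in which, in thymus and spleen, Pdcd1 was the higher under the Pdcd1 cKO label.

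**Figure D1:**
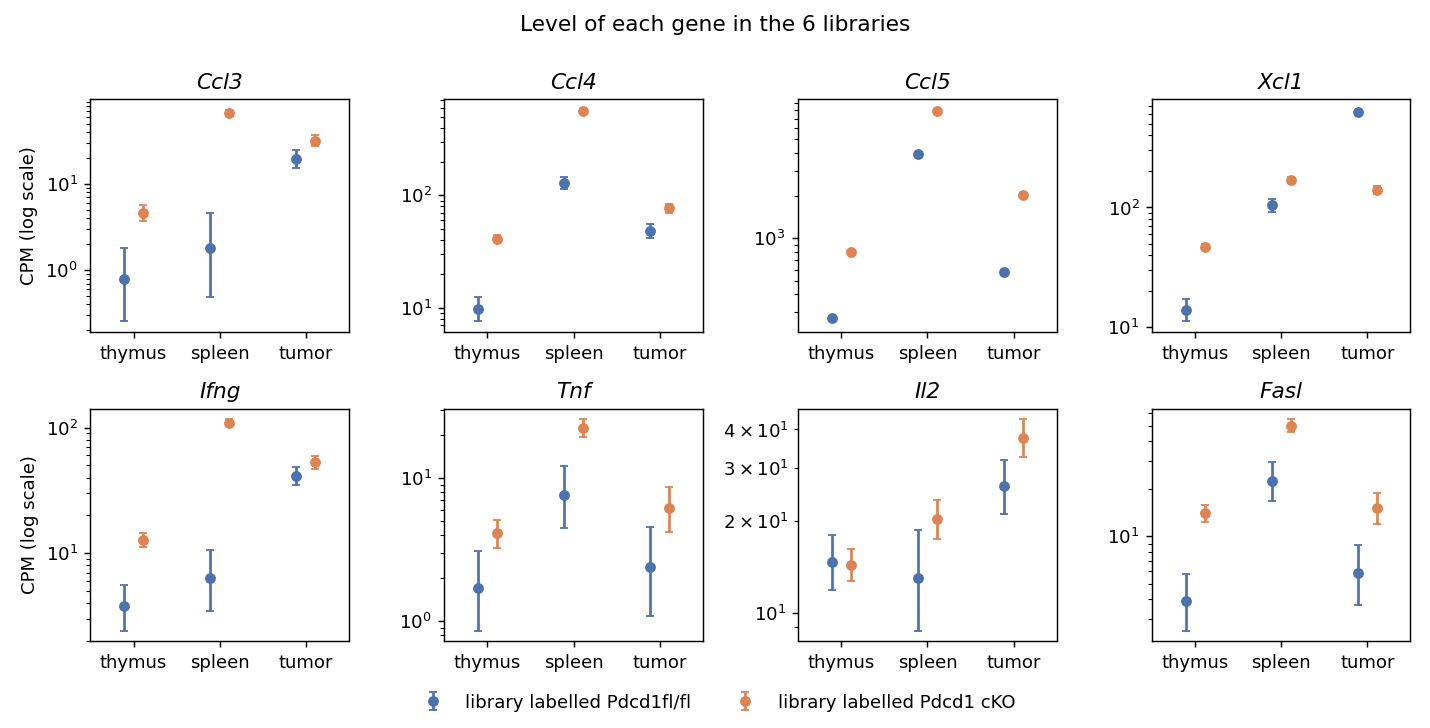
Level of each gene in CPM (log axis, a scale of its own for each gene) in the 6 libraries, with 95% Poisson intervals as bars. Xcl1 in the tumor stood at 625 CPM under the Pdcd1fl/fl label and 140 CPM under the other, the reverse of its order in thymus and spleen.

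Among the CC chemokines, Ccl3, also called macrophage inflammatory protein 1 alpha, had 5 and 89 UMIs in thymus (0.782 and 4.65 CPM), 4 and 597 in spleen (1.80 and 66.9 CPM), and 74 and 166 in tumor (19.7 and 32.1 CPM). The 3 libraries labelled Pdcd1 cKO were the higher ones, the intervals of the levels did not overlap in any tissue, and the spleen library labelled Pdcd1 cKO stood above both tumor libraries. The log2 ratios were 2.57 (1.29 to 4.23) in the thymus, 5.22 (3.85 to 7.10) in the spleen and 0.71 (0.30 to 1.12) in the tumor. In the spleen 38 of the 597 UMIs lay in 1 cell, and with no cell filter the log2 ratio was 4.24. In the tumor, with no cell filter and no restriction to T cell clusters, it was 1.46.

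Ccl4, its close relative and a ligand of the same receptor, had 63 and 787 UMIs in thymus (9.86 and 41.1 CPM), 287 and 4989 in spleen (129 and 559 CPM), and 181 and 397 in tumor (48.2 and 76.8 CPM). Spleen levels were the highest, and in each tissue the library labelled Pdcd1 cKO was above the other without overlap of the intervals. The log2 ratios were 2.06 (1.69 to 2.45), 2.11 (1.94 to 2.29) and 0.67 (0.42 to 0.93) in thymus, spleen and tumor. With no cell filter and no restriction to T cell clusters, the tumor value was 1.35.

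Ccl5, the chemokine RANTES, had 1729 and 15401 UMIs in thymus (271 and 805 CPM), 8703 and 71261 in spleen (3919 and 7985 CPM), and 2160 and 10360 in tumor (575 and 2004 CPM). Splenic levels were the highest of the 3 tissues under both labels, and no 2 of the 6 intervals overlapped. The log2 ratio was 1.57 (1.5 to 1.64) in the thymus, 1.03 (0.99 to 1.06) in the spleen and 1.80 (1.73 to 1.87) in the tumor. The spleen value sits at the 2-fold line: scaled by the median of ratios it was 0.85, and over totals without mitochondrial, ribosomal and Malat1 UMIs 0.89.

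Xcl1, the XC chemokine that draws Xcr1-bearing dendritic cells, had 89 and 897 UMIs in thymus (13.9 and 46.9 CPM), 232 and 1514 in spleen (104 and 170 CPM), and 2349 and 723 in tumor (625 and 140 CPM). It was the only member past 2-fold lower in a library labelled Pdcd1 cKO, which happened in the tumor, where the library labelled Pdcd1fl/fl held its highest level of the 6. The log2 ratios were 1.75 (1.43 to 2.08) in the thymus, 0.70 (0.50 to 0.91) in the spleen and -2.16 (-2.28 to -2.04) in the tumor. Among the 81 and 865 spleen cells that passed a stricter filter, with at least 2000 UMIs and 1000 genes, Xcl1 had 59 and 415 UMIs and the log2 ratio was -0.45. Of those 59 UMIs 25 lay in 1 cell, and without the highest cell of each library the ratio among the deeper cells was 0.21 (-0.30 to 0.76), above 0 again. With the other lineages of the tumor included, its ratio was -1.44.

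Among the cytokines, Ifng (interferon gamma) had 24 and 245 UMIs in thymus (3.76 and 12.8 CPM), 14 and 975 in spleen (6.30 and 109 CPM), and 155 and 275 in tumor (41.3 and 53.2 CPM). In the tumor the intervals of the 2 levels, 35.0 to 48.3 and 47.1 to 59.9 CPM, overlapped, and in thymus and spleen they did not. The log2 ratios were 1.77 (1.16 to 2.44), 4.12 (3.36 to 4.99) and 0.37 (0.08 to 0.66) in thymus, spleen and tumor, and with no cell filter the spleen value was 3.38. With the other lineages of the tumor included, the tumor value was 1.06.

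Tnf, the tumor necrosis factor gene, had 11 and 79 UMIs in thymus (1.72 and 4.13 CPM), 17 and 201 in spleen (7.65 and 22.5 CPM), and 9 and 32 in tumor T cell clusters (2.40 and 6.19 CPM). The libraries labelled Pdcd1 cKO were the higher ones, with overlapping level intervals in the tumor. The log2 ratios were 1.26 (0.34 to 2.32), 1.56 (0.84 to 2.37) and 1.37 (0.27 to 2.62), with lower bounds near 0 in thymus and tumor. Among the deeper spleen cells, with 1 and 63 UMIs, the ratio was 2.71. Without the highest cell of each library there were 0 and 57 UMIs. The ratio there was then 0.96 with a floor of 3 UMIs in place of 0, and its interval began at 0.62.

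Il2, the T cell growth factor gene, had 94 and 276 UMIs in thymus (14.7 and 14.4 CPM), 29 and 181 in spleen (13.1 and 20.3 CPM), and 98 and 194 in tumor (26.1 and 37.5 CPM). The thymus levels were close, those of the spleen overlapped in their intervals, and those of the tumor did not overlap by a narrow margin (21.2 to 31.8 and 32.4 to 43.2 CPM). Its log2 ratios were -0.03 (-0.37 to 0.32), 0.64 (0.06 to 1.25) and 0.52 (0.17 to 0.89), the smallest of the 8 members in size in the thymus and in the spleen. Among the deeper spleen cells, with 2 and 50 UMIs, it was 1.38.

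Fasl, the death ligand of the TNF family, had 25 and 267 UMIs in thymus (3.91 and 13.9 CPM), 50 and 446 in spleen (22.5 and 49.98 CPM), and 22 and 78 in tumor (5.85 and 15.1 CPM). Each library labelled Pdcd1 cKO was higher, with no overlap of the intervals within a tissue. The log2 ratios were 1.83 (1.24 to 2.49), 1.15 (0.73 to 1.60) and 1.37 (0.67 to 2.12) in thymus, spleen and tumor. With no cell filter and no restriction to T cell clusters, the tumor value was 2.02. The spleen value fell below 2-fold among the deeper cells, to 0.45 with 11 and 145 UMIs, and was 0.87 over cells with a Cd8a or Cd8b1 UMI and 0.98 when scaled by the median of ratios.

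The share of cells with a UMI depends on depth, so each cell was also thinned at random to 1000 UMIs, which left none out. Ccl5 was found in 32.6% and 53.9% of thymus cells at full depth and in 14.3% and 22.7% after thinning. Splenic cells with Ccl5 made up 86.1% and 97.7%, or 80.8% and 93.8% thinned, and those of the tumor T cell clusters 84.0% and 97.2%, or 37.4% (31.7% to 43.3%) and 69.7% (65.2% to 73.8%) thinned. In each tissue the library labelled Pdcd1 cKO had the larger thinned share of Ccl5. For Xcl1 the thinned shares were 1.31% and 3.83% in thymus, 7.58% and 12.3% in spleen, and 31.7% (26.3% to 37.5%) and 7.86% (5.57% to 10.7%) in tumor. The unthinned Xcl1 shares of the tumor were 65.5% and 24.2%. In melanoma-like cells the thinned share was 11.3% and 29.3% for Ccl5 and 1.41% and 0 of 58 cells for Xcl1, at a median of 31889 and 35962.5 UMIs per cell before thinning, against 11027 and 9155 in the T cell clusters. The upper limit for 0 of 58 cells is 6.16%. The thinned T cell shares thus stood above those of the melanoma-like cells without overlap of the intervals, except for Xcl1 in the library labelled Pdcd1 cKO, where they overlapped. Thinning takes more from the deeper melanoma-like cells, so stray RNA of a fixed amount per cell would be understated in them. Ifng was found in 34.5% and 35.8% of the tumor T cells at full depth and in 5.34% and 4.59% after thinning, with overlapping intervals, and in 0 of 142 (upper limit 2.56%) and 1.72% (0.0436% to 9.24%) of the melanoma-like cells.

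The share of a gene's UMIs held by few cells was taken next. For Ccl5, the 1% of cells with the most of its UMIs held 23.3% and 21.5% of them in thymus, 5.78% and 5.75% in spleen, and 7.41% and 5.83% in tumor. Its thymic UMIs were the more concentrated ones: 35 of 1067 and 94 of 2635 cells held at least 50% of them. After thinning, the thymus shares of the top 1% were 29.2% and 22.7%.

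For Xcl1 the top 1% held 52.8% and 45.3% of the UMIs in thymus, 37.1% and 20.3% in spleen, and 16.1% (14.7% to 17.7%) and 28.6% (25.4% to 32.1%) in tumor. In the tumor the library with fewer Xcl1 UMIs was thus the more concentrated one, with 13 of 458 cells holding at least 50% of them against 23 of 281. Single cells counted for much: the highest cell had 112 of 897 UMIs in the thymus library labelled Pdcd1 cKO, where the next had 40, and 190 of 2349 in the tumor library labelled Pdcd1fl/fl, where the next had 95.

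Ccl4 had 65.1% and 38.1% of thymic UMIs, 32.8% and 15.0% of splenic UMIs and 32.6% and 33.0% of tumor UMIs in the top 1% of cells. In the spleen library labelled Pdcd1 cKO, 344 of 4928 cells held at least 50% of Ccl4 UMIs, and the highest cell had 30. For Ccl3 the top 1% held 38.9% in that library and 41.9% and 19.3% in the tumor, where the highest cell had 17 of 74 UMIs and 10 of 166. Ifng had 37.6%, 21.4% and 13.8% of its UMIs in the top 1% in the thymus, spleen and tumor libraries labelled Pdcd1 cKO, and no cell of any library had more than 14.

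Most cells with Il2 held 1 UMI of it. Of the thymus, spleen and tumor T cells used, the highest had 4 Il2 UMIs. Of the thymus cells with any, 92.0% and 90.4% had exactly 1, beside 90% and 89.7% of those with Tnf. In the tumor the top 1% of cells held 10.2% and 8.25% of Il2 UMIs. Thymus cells with Il2 had a median of 6690 and 7885 UMIs in all, against 4234 and 5265.5 for cells without it, so detection of Il2 went with depth. Tnf and Fasl also had few UMIs per cell, at most 6 for Tnf and 5 for Fasl. Where no more than 1% of the cells have a UMI, the top share is 100% by construction and is not read, as in the spleen library labelled Pdcd1fl/fl, where 1% is 15 cells and Ifng lay in 14 cells and Tnf in 15.

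**Figure D2:**
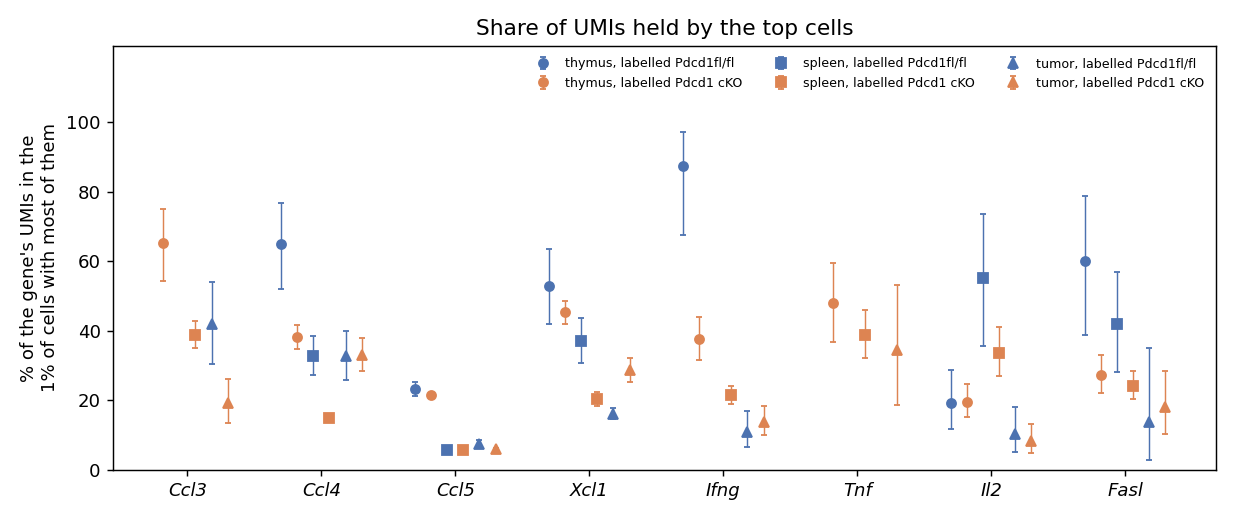
Share of each gene's UMIs, in percent, that lay in the 1% of cells with the most of them, by library, with 95% Clopper-Pearson intervals and only for libraries with at least 20 UMIs of the gene. The lowest shares were those of Ccl5 in the spleen (5.78% and 5.75%) and in the tumor library labelled Pdcd1 cKO (5.83%), with overlapping intervals.

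Cells were clustered within each tissue without the 8 members and Pdcd1, and clusters were named from marker genes. Many clusters came almost wholly from 1 library, so a cluster may be a feature of that library rather than a cell type. In the thymus, cluster 6, effector or memory-like and led by Lag3, Penk, Gzmk, S100a4 and Adrb1, had 1 and 197 cells, and cluster 11, effector or memory-like and led by Dmrta1, Gzmm, Fcgrt, Ly6c2 and Ppm1j, had 1 and 91. Cluster 8, effector or memory-like as well and led by Gzmm, Ppm1j, Fcgrt, Acsbg1 and 1810006J02Rik, had 158 and 6 cells.

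Thymus cluster 6, 198 cells in all, held 69.1% of all thymic Ccl3 UMIs, 54.0% of Ccl5, 47.6% of Ifng, 39.9% of Ccl4, 34.6% of Fasl and 29.5% of Xcl1. Ccl5 stood there at 10545 CPM (10332 to 10762), next at 4684 CPM in cluster 11, 1531 CPM in the unnamed cluster 10 and 1401 CPM in cluster 8, and the lowest level of the 13 clusters was 60.9 CPM in the cycling-like cluster 1. Neighbours in that order of the upper 3 did not overlap, while clusters 10 and 8 did. These levels pool both libraries; within the library labelled Pdcd1 cKO, Ccl5 stood at 10577, 4722 and 1580 CPM in clusters 6, 11 and 10, also without overlap. For Ccl4 the highest levels were 386 CPM in cluster 6 and 154 CPM in cluster 11, where 46 of 107 UMIs lay in 1 cell and the level without it was 89.5 CPM, and the lowest 2.11 CPM in cluster 1. Ifng stood at 146 CPM in cluster 6 and 60.2 CPM in cluster 10, with intervals that did not overlap.

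The highest thymic Xcl1 level was in cluster 10, with 19 and 102 cells and led by Rarres2, Dcn, Aebp1, Plac9 and Gas6, genes of connective tissue among them. There Xcl1 had 349 UMIs, 568 CPM (510 to 630), against 331 CPM (295 to 372) in cluster 6 and 138 CPM in cluster 11. In cluster 6, 112 of the 291 UMIs lay in 1 cell, and without the highest cell of each cluster the levels were 508 and 205 CPM in clusters 10 and 6. The cells of cluster 10 held 35.4% of thymic Xcl1 UMIs and 25.3% of Fasl UMIs, at 120 CPM of Fasl, which overlapped the 115 CPM of cluster 6. T cell RNA was present in that cluster: Cd3e stood at 320 CPM, while Cd8b1 was at 65.1 CPM. Xcl1 was found in 31.4% of its cells after thinning, against 1.13% in the early thymocyte-like cluster 2, at medians of 4524 and 6244 UMIs per cell.

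Il2 did not follow these clusters. Over the 13 thymus clusters its level ranged from 7.20 CPM in cluster 11 to 21.3 CPM in cluster 9, a 2.96-fold range, while Ccl5 ranged 173-fold and Cd8b1 21.0-fold.

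Where the 2 thymus libraries could be compared inside a cluster, with at least 20 cells each, Ccl5 did not keep the direction of the whole libraries. It was lower in the library labelled Pdcd1 cKO in 4 of 6 clusters and higher in 2, with every interval on its side of 0 and log2 ratios from -2.28 to 1.42. Without the highest cell of each library it was lower in 3 and higher in 3, with 3 intervals below 0 and 2 above. In the mature naive-like cluster 0 the levels were 573 and 118 CPM, a log2 ratio of -2.28 (-2.63 to -1.91), with 24 and 803 cells. In the mature naive-like cluster 9 they were 932 and 221 CPM, a log2 ratio of -2.07 (-2.45 to -1.69), but 75 of the UMIs under the Pdcd1fl/fl label lay in 1 cell, and without the highest cells the levels were 357 and 149 CPM, a log2 ratio of -1.26 (-1.81 to -0.69). In the early thymocyte-like cluster 2 the ratio turned from -0.94 to 0.87 (-0.37 to 2.51) without them. In the mature naive-like cluster 5, led by Pcdh9, Pou5f2, Il18rap, Sidt1 and Sntb1, the levels were 362 and 711 CPM, a log2 ratio of 0.98 (0.70 to 1.26). The higher Ccl5 level of the whole thymus library labelled Pdcd1 cKO thus stood beside clusters 6 and 11, which have 1 cell each from the other library and could not be compared.

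In the spleen, cluster 6, effector or memory-like and led by Lag3, Gzma, Trgc2, Gzmk and Rgs16, had 2 and 363 cells and the highest level of 6 members. Levels differ between the libraries, so the order is given within the library labelled Pdcd1 cKO. Ccl5 stood at 21232 CPM (20843 to 21626) in cluster 6, ahead of 11188 CPM in cluster 0 and 11067 CPM in cluster 11, which overlapped each other. Ccl4 was at 1757 CPM (1646 to 1873) and next at 770 CPM in cluster 11 and 694 CPM in cluster 8, which overlapped each other. Ccl3 was at 377 CPM (326 to 432), overlapping the 270 CPM of cluster 11 (193 to 368). Xcl1 was at 322 CPM (276 to 374), just overlapping the 260 CPM of cluster 0 (240 to 282), Ifng at 225 CPM, overlapping the 212 CPM of cluster 9, and Fasl at 140 CPM, overlapping the 73.1 CPM of cluster 10. The cells of cluster 6 held 33.4% of splenic Ccl3 UMIs and 14.2% of Ccl5 UMIs, so most Ccl5 lay elsewhere, and 32.3% of it in cluster 0, which has 13 and 1166 cells and is led by Tmem37, Gzmm, Klrc1, Klrk1 and Ccr2.

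Cell types outside the T lineage also carried Ccl5 UMIs in the spleen. The B cell-like cluster, 18 cells all from the library labelled Pdcd1 cKO, had 148 Ccl5 UMIs, 2855 CPM, beside 405 CPM of Cd8b1 and 96.4 CPM of Cd3e. After thinning, Ccl5 was found in 66.7% (41.0% to 86.7%) of these B cell-like cells, at a median of 2116.5 UMIs, against 93.8% of all cells of that library at a median of 1615. A share of cells with Ccl5 in the spleen is therefore to be read against that level.

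Inside single spleen clusters Ccl4 and Ccl5 kept their direction, while Xcl1 and Fasl did not throughout. Ccl4 was higher in the library labelled Pdcd1 cKO in 7 of 7 clusters that could be compared, with log2 ratios from 1.45 to 3.37 and every interval above 0. Ccl5 was higher in 8 of 8 clusters, from 0.12 to 1.56, with 7 of the intervals above 0. Xcl1 was mixed: higher in 4 of 7 clusters and lower in 3, with 3 intervals above 0 and 1 below, in cluster 4, where the levels were 274 and 166 CPM and the log2 ratio -0.73 (-1.22 to -0.22). There 25 UMIs lay in 1 cell, and without the highest cells the levels were 150 and 161 CPM and the ratio 0.09 (-0.54 to 0.78). Over the 7 clusters Xcl1 was then higher in 6, in 1 of them with a floor of 3 UMIs in place of 0, and lower in 1, with 3 intervals above 0 and none below. Fasl was higher in 2 of 4 clusters and lower in 2, from -0.40 to 2.93, with 1 interval above 0. These directions too are those of spleen libraries in which Pdcd1 was the higher under the Pdcd1 cKO label.

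In the tumor, the members divided between clusters. Xcl1 was highest in the unnamed cluster 2, led by Dapl1, Ighm, Ccr7, Tnfsf4 and Lad1, with 112 and 61 cells, where it had 2069 UMIs, 982 CPM (940 to 1026) and 65.8% of all tumor Xcl1. Cluster 3, effector or memory-like and led by Nhsl2, Gfm2, Malt1, Gzmc and Osbpl10, with 112 and 41 cells, had 310 CPM and 25.8%. Cluster 4, effector or memory-like and led by Lax1, Gm36723, Gzme, Plcl1 and Stk32c, with 17 and 117 cells, had 89.0 CPM. Cluster 0, effector or memory-like and led by Dach1, Trgc2, Gzma, H1f5 and 2900026A02Rik, with 13 and 239 cells, had 28.4 CPM. Pooled over both libraries, Xcl1 levels in these 4 clusters fell in that order without overlap of neighbouring intervals. Within the library labelled Pdcd1 cKO they were 682, 125, 64.4 and 25.6 CPM, but 25 of the 61 UMIs of cluster 4 lay in 1 cell, and without the highest cells clusters 4 and 0 overlapped, at 38.3 and 23.8 CPM.

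Ccl5 had nearly the opposite order. It stood at 3255 CPM in cluster 4, 2263 CPM in cluster 0, 618 CPM in cluster 3 and 296 CPM in cluster 2, with no overlap between neighbours when both libraries are pooled. Within the library labelled Pdcd1 cKO clusters 3 and 2, at 512 CPM (462 to 565) and 478 CPM (429 to 531), overlapped, though not without their highest cells (503 and 380 CPM). Pooled over both libraries, Fasl was highest in clusters 0 and 4, at 19.4 and 16.3 CPM. It stood at 4.59 CPM in cluster 3 and 5.70 CPM in cluster 2, whose interval overlapped that of cluster 4. Within the library labelled Pdcd1 cKO it was at 19.4, 16.9, 2.64 and 9.61 CPM in clusters 0, 4, 3 and 2. There the interval of cluster 2 (3.86 to 19.8) overlapped those of clusters 0 and 4. Ifng, pooled alike, ran from 56.3 CPM in cluster 4 to 36.6 CPM in cluster 2 among these 4. The 3 effector or memory-like clusters did not differ beyond their intervals. Within the library labelled Pdcd1 cKO the Ifng levels of clusters 4 and 2 were 60.2 and 46.7 CPM, with overlapping intervals.

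The Xcl1 difference of the tumor was present inside the clusters that both libraries filled. In cluster 2 the levels were 1141 and 682 CPM, a log2 ratio of -0.74 (-0.89 to -0.60). In cluster 3 they were 386 and 125 CPM, a log2 ratio of -1.62 (-1.95 to -1.31). Both are smaller in size than the -2.16 of the whole T cell clusters, in which clusters 2 and 3 have 112 cells each of 281 in the library labelled Pdcd1fl/fl, but 61 and 41 of 458 in the other. For Ccl5 the same clusters went apart, with a log2 ratio of 1.26 (1.03 to 1.49) in cluster 2 and -0.37 (-0.54 to -0.20) in cluster 3.

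The tumor libraries also hold cells of other lineages, which give a background for each gene. Melanoma-like cells (142 and 58) had all 8 melanoma markers, with Pmel at 4694 and 5630 CPM, and macrophage or monocyte-like cells (27 and 34) had Lyz2 at 3774 and 4061 CPM. In the melanoma-like cells the T cell gene Cd8b1 stood at 2.86% and 3.79% of its level in the T cell clusters and Cd3e at 3.01% and 4.87%. Xcl1 there was at 8.70 and 6.56 CPM, 1.39% and 4.69% of its T cell level, and Ccl4 at 2.08 and 7.87 CPM, 4.32% and 10.3%. Fasl had 0 UMIs, allowing up to 0.698 CPM, and 3 UMIs in the melanoma-like cells, and Tnf 2 in each library. For Xcl1, Ccl4, Ifng, Ccl3 and Fasl the level in CPM was thus higher in T cell clusters than in melanoma-like cells, with no overlap of intervals in either library. For Tnf this held under the Pdcd1 cKO label only. Under the Pdcd1fl/fl label its intervals, 1.10 to 4.55 CPM in T cell clusters and 0.0458 to 1.37 CPM in melanoma-like cells, overlapped. The tumor ratio of Tnf thus rests on a level not set apart from background. Melanoma-like cells were deeper, with a median of 31889 and 35962.5 UMIs against 11027 and 9155. CPM would therefore understate stray RNA of a fixed amount per cell, which was not tested. At full depth Ccl4 was found in 7.75% and 27.6% of melanoma-like cells, against 17.4% and 35.6% of the T cells. For Xcl1 the shares were 27.5% and 22.4% against 65.5% and 24.2%.

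Ccl5 was higher in the melanoma-like cells than a single ratio with Cd8b1 and Cd3e would give. It had 438 and 671 UMIs, 82.9 CPM (75.3 to 91.0) and 294 CPM (272 to 317), or 14.4% and 14.6% of the T cell level of the same library. Its log2 ratio in these cells was 1.82 (1.65 to 2.00), close to the 1.80 of the T cell clusters. At full depth 84.5% and 98.3% of the melanoma-like cells had a Ccl5 UMI, against 84.0% and 97.2% of the T cells.

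Il2 stood apart again. Melanoma-like cells had 181 and 95 Il2 UMIs, 34.2 CPM (29.4 to 39.6) and 41.6 CPM (33.6 to 50.8), beside 26.1 and 37.5 CPM in the T cell clusters, so 131% and 111% of the T cell level. Intervals of the 2 cell types overlapped in both libraries. After thinning, 4.93% and 3.45% of the melanoma-like cells had an Il2 UMI, against 2.14% and 3.28% of the T cells, with overlapping intervals. In the library labelled Pdcd1fl/fl the melanoma-like cells held 63.1% of all Il2 UMIs of the tumor. Over the 7 tumor clusters of at least 20 cells Il2 ranged 1.94-fold, from 20.4 to 39.5 CPM, where Cd8b1 ranged 43.3-fold and Pmel 93.9-fold. By the background level, Il2 UMIs in the tumor T cells cannot be read as expression by those cells, and the ratio of Il2 between the libraries carries the same limit.

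Macrophage or monocyte-like cells carried Tnf at a higher level than the T cells. It had 17 and 20 UMIs in them, 65.1 and 53.1 CPM, which is 27.2 and 8.57 times the level of the T cell clusters, with no overlap of intervals. These 27 and 34 cells held 60.7% and 37.0% of the Tnf UMIs of their libraries. Ccl4 was at 146 and 212 CPM, 3.02 and 2.76 times the T cell level, and Ccl3 at 42.1 and 84.9 CPM, 2.14 and 2.64 times. Single cells held 24 of 38 and 51 of 80 of these Ccl4 UMIs and 8 of 11 and 12 of 32 of those of Ccl3. Without the highest cell of each cell type, Ccl4 was 1.32 and 1.25 times the T cell level and Ccl3 0.789 and 1.90 times, with overlapping intervals, while Tnf stood at 24.2 and 9.74 times. Ccl5 was at 391 and 1971 CPM, 0.680 and 0.984 times the T cell level, and 366 of the 743 UMIs in the library labelled Pdcd1 cKO lay in 1 cell. When cells were assigned one by one by their marker UMIs, Ccl5 stood at 135 and 1096 CPM in the macrophage or monocyte-like cells, 0.233 and 0.534 times the T cell level. Xcl1 had 2 and 3 UMIs and Cd8b1 13.2% and 11.7% of its T cell level, or 2.24% and 12.2% by the assignment of single cells, so the genes were not in 1 ratio between the 2 cell types.

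**Figure D3:**
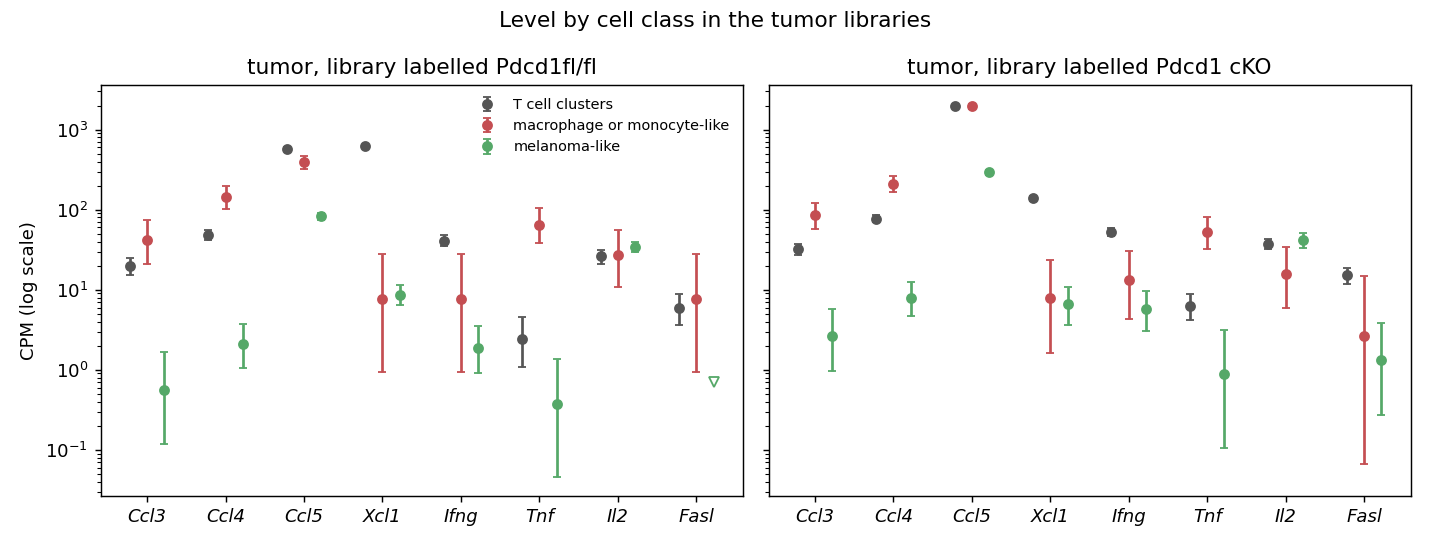
Level in CPM (log axis) of each gene in the T cell clusters, the macrophage or monocyte-like and the melanoma-like cells of the 2 tumor libraries, with 95% Poisson intervals and an open triangle at the upper limit for 0 UMIs. Tnf was highest in the macrophage or monocyte-like cells (65.1 and 53.1 CPM), and Il2 was alike in T cell clusters and melanoma-like cells.

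Marker lists of other lineages in the cells used moved with the libraries too, and their part in the ratios was not tested. The macrophage or monocyte list had 9 and 10 of 10 genes detected in the tumor T cell clusters, with Csf1r at 0 in the library labelled Pdcd1fl/fl, summed levels of 45.5 and 67.5 CPM, and Apoe and Lyz2 as the most abundant genes. The melanoma list had 8 of 8 in both, 290 and 198 CPM summed, with Dct and Pmel most abundant. For the NK cell list, 5 and 6 of 6 genes were detected in each tissue, with the defining gene Ncr1 at 0 in the 3 libraries labelled Pdcd1fl/fl. The NK sums were 9.23 and 21.8 CPM in the thymus, 30.6 and 67.6 CPM in the spleen, and 86.0 and 169 CPM in the tumor, with Klre1 the most abundant gene except in the tumor library labelled Pdcd1 cKO, where it was Fcer1g. The B cell list summed to 195 and 2061 CPM in the spleen, with Ms4a1 at 0 in the library labelled Pdcd1fl/fl, and Ighm and Igkc most abundant. The granulocyte progenitor list summed to 2.25 and 77.4 CPM there, with 2 and 5 of 5 detected, Prtn3 and Mpo most abundant, and Mpo, Elane and Ctsg at 0 in the library labelled Pdcd1fl/fl. The fibroblast list summed to 64.2 and 20.8 CPM in the thymus, with 5 of 6 detected in both, Lum at 0 and Dcn most abundant. The erythroid list summed to 0.313 and 10.3 CPM in the thymus, with 2 and 5 of 5 detected, Hbb-bs most abundant and Hba-a1, Hba-a2 and Alas2 at 0 in the library labelled Pdcd1fl/fl. In the spleen it summed to 1.35 and 29.7 CPM, with 3 and 5 of 5 detected, Hba-a2 and Hbb-bs most abundant and Hba-a1 and Hbb-bt at 0 in the library labelled Pdcd1fl/fl. The macrophage or monocyte list summed to 7.65 and 23.9 CPM in the spleen, with 5 and 7 of 10 detected, Apoe most abundant, C1qa, C1qc and Ms4a7 at 0 in both libraries and C1qb and Csf1r at 0 in the library labelled Pdcd1fl/fl. The B cell list summed to 81.4 and 231 CPM in the tumor T cell clusters, with Ighm most abundant and Ms4a1 at 0 in the library labelled Pdcd1 cKO. Lists of other T cell states moved as well, all with every gene detected: innate-like T from 58.7 to 97.2 CPM in the thymus and from 299 to 461 CPM in the spleen, with Il2rb most abundant, CD4 T from 203 to 304 CPM in the thymus, with Ctla4, and cycling from 1325 to 754 CPM there, with Top2a. The early thymocyte list, also with every gene detected and with Dntt most abundant, summed to 928 and 819 CPM in the thymus.

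Some members met in the same cells. In the spleen library labelled Pdcd1 cKO, 248 cells had both Ccl3 and Ccl4, which is 67.6% of the cells with Ccl3 and 11.8% of those with Ccl4, where 42.5% of all cells had Ccl4. After thinning the overlap was 134 cells, 56.5% of the cells with Ccl3, against 30.8% of all cells with Ccl4. Ccl4 and Ifng met in 397 cells there, 57.0% of the cells with Ifng and 18.9% of those with Ccl4, and after thinning in 208, 45.3% of the cells with Ifng. Leaving out Ccl5, which most splenic and tumor cells had, and Il2 for its background, cells with at least 4 of the other 6 members numbered 0 and 19 in thymus, 0 and 66 in spleen, and 12 and 17 in tumor, but after thinning 0 and 15 in the spleen and none elsewhere. Cells with none of those 6 made up 89.7% and 70.1% in thymus, 76.7% and 38.2% in spleen, and 20.3% and 23.4% in tumor. After thinning to equal depth the cells with none were 97.3% and 89.6%, 82.1% and 52.3%, and 61.6% and 77.1%. The larger share with none was thus under the Pdcd1fl/fl label in thymus and spleen and under the Pdcd1 cKO label in the tumor. The tumor order was not that of each of the 6 members. Thinned tumor shares were 31.7% and 7.86% for Xcl1, 5.34% and 4.59% for Ifng, and 0.356% and 0% for Tnf. They were larger under the Pdcd1 cKO label for Ccl3 (1.42% and 4.15%), Ccl4 (2.85% and 4.80%) and Fasl (0.356% and 3.06%). No background is given for these 6 members in thymus and spleen, so the shares there count cells with a UMI, not cells that express the gene.

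The likeness of level patterns was taken over 54 groups, each the cells of 1 library in 1 cluster with at least 20 cells, as Pearson's r of log2 CPM after adding 10 CPM. Groups of a library share its depth and its mouse, so r is a description. Ccl4 and Ccl5 were the most alike pair of members, at r = 0.87, followed by Ccl3 and Ccl4 at 0.80, Ccl3 and Ifng at 0.77, and Ccl4 and Ifng at 0.77. With Ccl5, Il2 had r = -0.09, and with Ccl4 0.14. Among 8319 genes compared, the 3 most like Ccl3 were Hspa1a (0.81), Ccl4 and Gzmk (0.78). For Ccl4 they were Ccl5, Hspa1a (0.85) and Pmaip1 (0.84), and for Ccl5 Gimap4 (0.87), Ccl4 and Hopx (0.85). Xcl1 was nearest to Klrd1 (0.85), Hopx (0.82) and Pglyrp1 (0.80), and Ifng to Bhlhe40 (0.79), Tbx21 (0.79) and Ccl3. Tnf was nearest to Ms4a6d (0.74), Cap1 (0.72) and Zyx (0.71), Fasl to Il18r1 (0.73), Rinl (0.71) and Tbx21 (0.69), and Il2 to Chmp2a, Gtf3a and Nabp2 (0.70 each).

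Other genes of the same pathways were counted by lists, each measured where the 2 libraries had at least 20 UMIs together. Beside them, of all genes so measured, 8.75% in the thymus, 9.18% in the spleen and 9.7% in the tumor were past 2-fold higher and 5.33%, 2.83% and 4.31% lower, with medians of -0.02, 0.17 and 0.10. Of 10 regulators and companions of effector function, 7 were past 2-fold higher in the thymus library labelled Pdcd1 cKO (median log2 ratio 1.27), 5 in the spleen (0.92) and 1 in the tumor (0.29), near the 9.7% of all genes, and none lower. The granzyme gene Gzmb was among the highest in each tissue, with 16 and 317 UMIs in thymus (log2 ratio 2.73), 21 and 257 in spleen (1.61), and 2868 and 8383 in tumor (1.09). The perforin gene Prf1 had 19 and 210 UMIs in the thymus (1.88), and Prdm1, for a repressor active in effector cells, 13 and 196 in the spleen (1.91). The 12 marker genes of effector or memory CD8 cells, all detected in every library, summed to 982 and 805 CPM in the thymus, with Gzma alone at 561 CPM under the Pdcd1fl/fl label and Nkg7 the most abundant, at 325 CPM, under the other. Their sums were 2495 and 3561 CPM in the spleen and 3007 and 5289 CPM in the tumor, with Nkg7 most abundant.

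Of 20 feedback genes of NFAT, NF-kB and AP-1 signalling, which T cell activation induces, 2 of 20 measured were past 2-fold higher in the thymus (median 0.52), 8 of 20 in the spleen (0.92) and 1 of 18 in the tumor, where 3 were past 2-fold lower (median -0.60). Beside 8.75%, 9.18% and 9.7% of all genes, the counts of higher genes in thymus and tumor are near or below the share of all genes. In the thymus Rgs1 had 275 and 3299 UMIs (2.00) and Cd69 383 and 2693 (1.23), while Egr1 had 357 and 608 (-0.81). In the spleen Nr4a1 had 307 and 4008 UMIs (1.70) and Fos 225 and 2764 (1.61). In the tumor Junb had 1120 and 611 UMIs (-1.33) and Fos 90 and 53 (-1.22), while Irf4 had 2 and 19 (2.79, 0.74 to 5.93) and Egr1 27 and 53 (0.51). The median of these activation genes was thus above 0 in thymus and spleen and below 0 in the tumor. A link to the members was not tested.

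Of 19 other T cell cytokines and TNF-family ligands, 7 of 12 measured were past 2-fold higher in the thymus (median 1.11), 1 of 8 in the spleen (0.37) and 1 of 7 in the tumor (-0.10), and none lower, beside 8.75%, 9.18% and 9.7% of all genes, so the spleen and tumor counts are near that share. Tnfsf8 had 22 and 221 UMIs in the thymus (1.75), Tnfsf14 9 and 108 in the spleen (1.58), and Il16 32 and 92 in the tumor (1.06). Among 15 other chemokines, 1 was measured in the thymus, Cxcl10, which interferon gamma induces, with 24 and 373 UMIs (2.38). The spleen had 2 measured, Cxcl10 with 18 and 252 UMIs (1.80) and Cxcl2 with 1 and 19 (2.24, -0.41 to 7.62), both past 2-fold. In the tumor 2 of 6 were past 2-fold higher and none lower (median 0.29), the higher ones being Cxcl2 with 5 and 77 UMIs (3.48) and Ccl6 with 14 and 65 (1.75). Ratios below 0 there included Ccl1 with 31 and 23 UMIs (-0.89) and Cxcl10 with 87 and 88 (-0.44).

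Of 18 interferon gamma targets, 4 of 15 measured were past 2-fold higher in the thymus (median 0.74), 3 of 15 in the spleen (0.54) and 1 of 14 in the tumor (0.45), and none lower, beside 8.75%, 9.18% and 9.7% of all genes higher. Gbp4, a guanylate-binding GTPase gene, had 9 and 31 UMIs in the tumor (1.32), but 81 and 296 in the spleen (-0.14). Also below 0 were Socs1 in the tumor, with 37 and 29 UMIs (-0.81), Cxcl10 there (-0.44), and Psmb8 in the thymus, with 3635 and 7189 (-0.60). Of 12 receptor genes of the members, 2 of 9 measured were past 2-fold higher in the thymus (0.26), 1 of 9 in the spleen (0.45) and 1 of 9 in the tumor (0.06), with 1 lower there, so the spleen and tumor counts are near the share of all genes. The receptor of Fas ligand, Fas, had 36 and 24 UMIs in the tumor (-1.05). Of 9 mRNA decay factors that bind AU-rich elements, none was past 2-fold in thymus or tumor (medians 0.06 and -0.62), and 1 was in the spleen, Zfp36, with 342 and 4478 UMIs (1.70).

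The members lie on 5 chromosomes of GRCm39, by the GENCODE annotation. The CC chemokine genes stand close together on chromosome 11: Ccl3 (ENSMUSG00000000982) at chr11:83538670-83540191, minus strand; Ccl4 (ENSMUSG00000018930) at chr11:83553383-83555509, plus strand; Ccl5 (ENSMUSG00000035042) at chr11:83416602-83425942, minus strand. Between Ccl3 and Ccl4 lie 13191 bases, and between Ccl4 and Ccl5 127440. On chromosome 1 are Xcl1 (ENSMUSG00000026573) at chr1:164759213-164763096, minus strand, and Fasl (ENSMUSG00000000817) at chr1:161608258-161616075, minus strand, which are 3143137 bases apart. The cytokine genes are Ifng (ENSMUSG00000055170) at chr10:118276951-118281797, plus strand, Tnf (ENSMUSG00000024401) at chr17:35418357-35420983, minus strand, and Il2 (ENSMUSG00000027720) at chr3:37174672-37180108, minus strand. The nearest coding gene to Tnf is Lta, another ligand of the TNF family, 1157 bases away.

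Some members overlap other genes, which bears on how reads are assigned. Il2 overlaps Adad1 on the opposite strand over 1408 bases, and Adad1 had 9 and 34 UMIs in thymus, 1 and 9 in spleen, and 11 and 4 in tumor. Gm20743 covers all 3884 bases of Xcl1 on the opposite strand and had 87 and 73, 11 and 41, and 68 and 25 UMIs. In the annotation Ccl3 and Ccl5 also overlap Gm53692 and Gm73713 on the opposite strand, over 1522 and 2711 bases, and Ifng overlaps Gm49751 on its own strand over 2722 bases, but these 3 genes are not in the deposited counts. Whether the counting used the strand is not stated.

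The 3′ untranslated regions of activation genes often hold AU-rich elements that decay factors bind, so the pentamer ATTTA and the nonamer TTATTTATT, which contains it, were counted there on the mRNA strand. ATTTA occurred 5 times in Ccl3, 2 in Ccl4, 0 in Ccl5, 1 in Xcl1, 6 in Ifng, 8 in Tnf, 7 in Il2 and 1 in Fasl. At least 3 pentamers were found in 4 of the 8 members, beside 38.6% of 20858 genes and 9.504% of the 7334 genes with a 3′ untranslated region of 141 to 887 bases, the range of the members. The nonamer was in 2 of 8, Tnf with 5 and Il2 with 1, beside 8.34% of all genes and 2.93% of those of the same length. Ccl5, found in most splenic cells, has no pentamer in its 201 bases. For each of the 2 genes with a nonamer a single site is shown to let its setting be compared, 5′ to 3′ on the mRNA strand with T for U. Only the nonamer at position 438 of the Tnf region and at 188 of the Il2 region is in capitals. In the Tnf stretch another nonamer overlaps the end of the capitals and runs on in lower case.
Tnf: tttgcacttaTTATTTATTatttatttat
Il2: ttatctgaaaTTATTTATTatattgaatt

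Promoter windows, from 250 bases before to 50 after the start of transcription, were taken from RefSeq (table build GRCm38.p6), where 6 of 8 members had an entry and Ccl4 and Ccl5 had none, and each of the 6 was found once in GRCm39. Motifs were searched on both strands, and no motif contains another. TATAAA, the TATA box, was in Ifng, Tnf and Il2, at -30, -29 and -31 from the start, and in 14.2% of 27025 promoters. GGTGTGA, bound by T-box factors, was in Xcl1 at -188 and in 3.96% of all promoters, and TGTGGTT, bound by Runx factors, in Xcl1 at -228 on the opposite strand and in 5.37%. No member had TGANTCA, bound by AP-1 (7.93% of all), TGACGTCA, the cyclic AMP response element (1.88%), or the NF-kB motif (8.18%). Ccl3 and Fasl held none of these letters in their windows, which says nothing of the factors. The windows of 3 members are shown because their ratios differed most in kind: Ccl3 had the largest spleen ratio, Xcl1 turned direction between tissues, and Il2 was near level in the thymus. Each is given 5′ to 3′ on the gene's strand with the motifs found in capitals, Ccl3 at chr11:83540155-83540454, Xcl1 at chr1:164763042-164763341 and Il2 at chr3:37180054-37180353, all on the minus strand.
Ccl3: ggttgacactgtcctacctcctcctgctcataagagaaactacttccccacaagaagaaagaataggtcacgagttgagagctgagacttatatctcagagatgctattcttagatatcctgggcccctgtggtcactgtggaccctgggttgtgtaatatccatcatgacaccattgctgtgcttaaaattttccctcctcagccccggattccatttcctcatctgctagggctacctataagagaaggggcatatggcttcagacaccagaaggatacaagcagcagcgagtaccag
Xcl1: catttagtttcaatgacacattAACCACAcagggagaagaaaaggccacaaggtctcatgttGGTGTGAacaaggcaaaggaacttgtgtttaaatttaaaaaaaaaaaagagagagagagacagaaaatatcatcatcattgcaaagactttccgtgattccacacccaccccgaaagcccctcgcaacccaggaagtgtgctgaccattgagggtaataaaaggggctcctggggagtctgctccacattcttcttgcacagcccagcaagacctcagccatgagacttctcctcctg
Il2: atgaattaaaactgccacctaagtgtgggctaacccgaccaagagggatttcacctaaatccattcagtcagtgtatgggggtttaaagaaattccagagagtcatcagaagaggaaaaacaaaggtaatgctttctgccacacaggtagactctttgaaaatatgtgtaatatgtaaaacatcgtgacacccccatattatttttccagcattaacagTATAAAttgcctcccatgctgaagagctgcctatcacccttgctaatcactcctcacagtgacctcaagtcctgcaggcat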

How the data were processed

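For each of the 6 libraries the authors deposited raw UMI counts per gene and barcode, made with version 3.2 of the PIPseq pipeline on GRCm39, and these deposited counts were used as they stand. Their cell filter was applied, with minima of 500 genes and 1000 UMIs and a maximum of 20% mitochondrial UMIs. The members and lists were chosen with earlier results of these data known. Genes named were taken from the 8 members, Pdcd1, the 2 highest and 2 lowest ratios of each pathway list, the 5 leading genes of a cluster and the 3 genes most like each member.

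UMIs were summed per library and gene, and CPM was taken over all UMIs. A ratio needed 20 UMIs in the 2 libraries together, and past 2-fold means a log2 ratio of at least 1 or at most -1. Intervals were computed with scipy 1.17.1, numpy 2.4.6 and pandas 2.3.3, and the interval code was tested on simulated data. Both libraries of each tissue were joined, and clusters were found with R 4.3.3, Seurat 5.3.0 and sctransform 0.4.2 (20 principal components, Louvain, resolution 0.8), without the 8 members and Pdcd1. The authors used Seurat 4.3.0 and joined libraries with Harmony, which was not installed here, so clusters were not integrated and the classes were rebuilt. Clusters were named by 3 or more markers that 10% or more of their cells held at a level 2-fold above that of all other clusters, thresholds set after the data had been seen. Scrublet (scanpy 1.11.5) called 1, 10, 10, 0, 0 and 3 cells as doublets, too few for a caller that has worked, so doublets cannot be said to be removed and no cell was dropped for them.

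Alternatives were no filter, a strict filter (2000 UMIs, 1000 genes, 10% mitochondrial), other scalings, each cell weighed alike, other sets of cells, a per-cell rule for tumor T cells, and resolutions 0.5 and 1.2. Figures were drawn with matplotlib 3.10.9. Single-gene results for 2 genes of the marker and receptor lists are not reported here.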

Additional observations from a re-analysis of the deposited data

Results flagged for a closer look

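Xcl1 went in opposite directions between the tissues. Its log2 ratio, the library labelled Pdcd1 cKO over the library labelled Pdcd1fl/fl, was 1.75 in the thymus, 0.70 in the spleen and -2.16 in the tumor T cell clusters. With 1 library per label and tissue, the difference between tissues was not tested. The spleen value was -0.45 among its deeper cells, and 0.21 there without the highest cell of each library.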

How the results depend on the processing

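All values are log2 ratios, Pdcd1 cKO label over Pdcd1fl/fl label. Over the 80 alternatives for single members in the thymus, 75 stayed within the counting interval of the main value, 5 moved and 0 reversed. In the spleen it was 68, 11 and 1 of 80, and in the tumor 80, 24 and 0 of 104, where 8 of the 80 were fixed in advance because the strict cell filter removes no tumor T cell. The reversal was Xcl1 in the spleen, -0.45 with the strict cell filter against 0.70, with 81 and 865 cells left, and 0.21 with that filter and without the highest cell of each library. Within clusters, leaving out the highest cells turned the sign of 9 of 48 ratios, 7 with an interval over 0 from the start and 2 without: Ccl5 in thymus cluster 2, from -0.94 to 0.87, and Xcl1 in spleen cluster 4, from -0.73 to 0.093. The spleen median of the members moved to 1.98 with that filter, from 1.35. The tumor median and count past 2-fold higher, 0.69 and 3, became 1.27 and 6 with no cell filter, 1.27 and 6 with other lineages included, 1.26 and 5 over cells with a Cd8a or Cd8b1 UMI, and 1.17 and 5 at resolution 1.2. All 4 add cells of other lineages to the T cells: the first 2 by construction, the third 66 of 142 and 37 of 58 melanoma-like cells, which have such a UMI, and the last 57 and 13 of them, in clusters not named as another lineage. The first 2 are nearly the same set of cells, as the filter kept 456 of 457 and 561 of 561 tumor barcodes. Spleen Ccl5 fell below 2-fold, to 0.85, when scaled by the median of ratios, a scaling that moves the median of all spleen genes from 0.17 to -0.01. Leaving out mitochondrial, ribosomal and Malat1 UMIs moved the thymus median of all genes from -0.02 to 0.16. The alternatives without the highest cell, over whole libraries and within clusters and cell types, and without clusters led by genes of other lineages were chosen after seeing the data, as was leaving Il2 out of the members counted per cell. No paired analysis was possible within a tissue because each label has 1 library per tissue. Depth limits the spleen library labelled Pdcd1fl/fl most, where Ccl3 had 4 UMIs.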
